A study of Homo sapiens with 12 samples.

Results

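NRCAM, SCG5, BEX1 and ABI3BP are 4 of the 58735 genes counted in HLE-B3 cells, an immortalized human lens epithelial line. They were chosen by their read counts and FPKM in the deposited tables, because these differed strongly between cells lacking ATG7 and wild-type (WT) cells, NRCAM and SCG5 being higher and BEX1 and ABI3BP lower in the knockout. The differences between the lines are therefore given as a description, with a standard error (SE) and no test. RNA was sequenced in 4 groups of 3 libraries. WT and Atg7KO cells were collected untreated at 0 h, and WT and Atg7KO cells were collected after 12 h in 200 μM H2O2, which the study used as an oxidative stress. All groups were grown in the same serum-containing medium. The knockout was made with CRISPR/Cas9, and after puromycin selection single clones were picked. The labels do not say which clone was sequenced, so loss of ATG7 and differences between a clone and its parent line cannot be told apart. The untreated libraries are labelled 0 h and the treated ones 12 h, so H2O2 and time in culture cannot be told apart either.

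ATG7 is the enzyme that activates ubiquitin-like proteins for autophagosome formation, and none of the 4 genes encodes a known part of that machinery. NRCAM is a cell adhesion molecule of the L1 family of the immunoglobulin superfamily, anchored to ankyrins inside the cell and best known from axon guidance and nodes of Ranvier; mice without it develop cataracts. SCG5 encodes the neuroendocrine protein 7B2, a secretory chaperone needed to make active prohormone convertase PCSK2. BEX1 is a small X-linked adaptor protein of neural and regenerating tissues. ABI3BP is a secreted extracellular matrix protein with fibronectin type III domains, named for binding the SH3 domain of ABI3.

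The upstream sequences are shown because the members differed in both directions and their start regions had little in common in base composition. RefSeq gives the 250 bases before each annotated start on GRCh38.p14, and all 4 genes matched by symbol. NRCAM has 3 starts in that table, and the outermost one was used. Printed is the part of each window that carries no annotated untranslated or coding sequence in GENCODE release 29, 5′ to 3′ on the gene's strand, with CG dinucleotides in capitals. The NRCAM stretch is chr7:108456437-108456669 (minus strand), that of SCG5 chr15:32641460-32641675 (plus strand), that of BEX1 chrX:103064241-103064421 (minus strand) and that of ABI3BP chr3:100993516-100993671 (minus strand). The NRCAM window lies inside the gene as annotated for the counts, which extends to 108456717. It is therefore upstream of the RefSeq start used, but not of the whole gene. The printed stretches of the other members lie outside their annotated genes.
NRCAM: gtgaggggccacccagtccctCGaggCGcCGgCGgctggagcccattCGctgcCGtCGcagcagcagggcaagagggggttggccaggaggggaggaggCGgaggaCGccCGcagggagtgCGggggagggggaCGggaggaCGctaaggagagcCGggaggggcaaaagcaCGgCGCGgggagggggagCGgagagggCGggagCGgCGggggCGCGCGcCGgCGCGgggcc
SCG5: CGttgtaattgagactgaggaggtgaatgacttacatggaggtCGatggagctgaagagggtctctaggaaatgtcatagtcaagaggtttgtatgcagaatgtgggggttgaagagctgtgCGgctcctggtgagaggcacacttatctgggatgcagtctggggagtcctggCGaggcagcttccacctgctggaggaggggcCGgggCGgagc
BEX1: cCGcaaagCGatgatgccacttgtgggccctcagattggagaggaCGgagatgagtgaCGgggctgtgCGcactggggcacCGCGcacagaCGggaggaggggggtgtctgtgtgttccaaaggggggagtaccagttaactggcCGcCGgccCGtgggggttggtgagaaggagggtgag
ABI3BP: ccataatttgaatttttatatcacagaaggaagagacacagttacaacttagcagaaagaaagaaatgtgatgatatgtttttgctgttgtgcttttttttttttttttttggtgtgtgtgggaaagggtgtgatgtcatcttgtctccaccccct

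The whole 250-base window of NRCAM, which lies inside the annotated gene, held 29 CG dinucleotides. Of 35116 RefSeq promoter windows, 14.1% held as many or more. BEX1 had 19 (34.6% of windows with as many or more), SCG5 had 8 (56.3%) and ABI3BP had 4 (70.7%), against a median of 11. GC content was 78.4% for NRCAM, 65.6% for BEX1, 56.4% for SCG5 and 45.2% for ABI3BP, against a median of 58.0%. NRCAM and BEX1, which differed between the lines in opposite directions, were both richer in CG than the median, and SCG5 and ABI3BP, also opposite to each other, were both poorer. Both strands were searched for 4 short motifs, chosen after the sequences had been read. CACGTG, the E-box, was found once, in BEX1 (6.34% of windows hold it). TGACG, the core of the cyclic AMP response element, was found once in SCG5 and at 2 places in BEX1 (21.2% of windows). GGGCGG, the GC box, was found at 2 places in NRCAM and once each in SCG5 and ABI3BP (42.6%). TATAAA was found once, in ABI3BP (10.7%). Most of these matches lie in the part of the window that is not printed. The printed stretches hold 1 GGGCGG each in NRCAM and SCG5, 1 TGACG in BEX1 and 1 TATAAA in ABI3BP. No motif was present in all 4 windows, and such a match is a description of the letters only.

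Library totals ran from 15602183 to 17659496 reads on genes, with a median of 17205174. Within 3 groups each library correlated with the rest of its group at a mean r between 0.991 and 0.992, but untreated Atg7KO replicate 1 correlated at 0.974 with the other two of its group. The values of the 4 genes that use it are given with and without it, and calls of other genes that are lost without it are named. No pair of libraries held identical values, and the methods call the 3 libraries of a group biological replicates. Since nothing says how separate the cultures were, p-values measure only the spread between these samples, which may be technical. ATG7 itself had between 260 and 561 reads in every library, and its mean without treatment was 2.55 ± 0.313 FPKM (SD, n = 3) for WT and 3.55 ± 0.205 FPKM for Atg7KO, so its mRNA level does not check the knockout label. FPKM are fragments scaled to gene length and to library size. Most of the 11 lens markers read were thin in all groups. CRYAA had at most 1 read, FOXE3 at most 3 and CDH1 at most 8 in any library, and PROX1 and MAF stayed below 0.1 FPKM, while PAX6 was between 0.505 and 1.35 FPKM and VIM and GJA1 were abundant. SIX3 had group means of 3.06 and 2.46 FPKM in untreated and treated WT cells and 1.98 and 2.45 FPKM in untreated and treated Atg7KO cells. In the same order BFSP1 had 0.298, 0.715, 0.400 and 0.585 FPKM. CRYAB had group means of 0.172 and 1.65 FPKM in untreated and treated WT cells and 0.0119 and 0.940 FPKM in untreated and treated Atg7KO cells.

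NRCAM (ENSG00000091129, chr7:108147623-108456717, minus strand) stood at 4 separate levels, 1 for each group. The untreated WT libraries had 0.196, 0.219 and 0.296 FPKM, from 28, 33 and 43 reads. The H2O2-treated WT libraries had 1.18, 1.12 and 1.13 FPKM. The untreated Atg7KO libraries had 1.69, 2.36 and 2.56 FPKM, and the H2O2-treated Atg7KO libraries had 11.5, 11.2 and 10.4 FPKM. No group overlapped another, and even untreated knockout cells had more NRCAM than stressed WT cells. NRCAM was 9.29-fold higher in Atg7KO than in WT cells before treatment (log2 difference 3.22, SE 0.24) and 9.60-fold higher after it (3.26, SE 0.07). The untreated difference was 3.38 (SE 0.16) without untreated Atg7KO replicate 1.

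NRCAM rose with H2O2 in both lines. The rise was 4.79-fold in WT cells (log2 fold change 2.26, SE 0.18, adjusted p = 1.837e-15) and 4.98-fold in Atg7KO cells (2.32, SE 0.17, adjusted p = 9.686e-05), both by the quasi-likelihood test of edgeR, with p-values adjusted over all genes tested after Benjamini and Hochberg. A gene is called here when that adjusted p is under 0.01, the log2 fold change is beyond 1 and the mean FPKM is above 1 in at least 1 group, and NRCAM was called in both lines. The difference between the responses, Atg7KO minus WT, was 0.06 on the log2 scale (SE 0.26), or -0.10 (SE 0.17) without untreated Atg7KO replicate 1, and was not tested, since it is built from the contrasts that chose the gene. Without untreated Atg7KO replicate 1 the rise in the knockout was 2.15 (edgeR adjusted p = 7.201e-105).

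SCG5 (ENSG00000166922, chr15:32641676-32697098, plus strand) was low in WT cells. The untreated WT libraries had 0.261, 0.297 and 0.436 FPKM, from 10, 12 and 17 reads, and the H2O2-treated WT libraries had 1.26, 0.976 and 1.03 FPKM. The untreated Atg7KO libraries had 9.44, 5.39 and 5.58 FPKM, and the H2O2-treated ones 11.04, 11.2 and 9.34 FPKM. The lowest knockout library was above the highest WT library, whether treated or not. Within the knockout, replicate 1 of the untreated group was above the lowest treated library, so the groups overlapped. SCG5 was 20.3-fold higher in Atg7KO than in WT cells without treatment (log2 difference 4.34, SE 0.32) and 9.56-fold higher with H2O2 (3.26, SE 0.14). Without untreated Atg7KO replicate 1 the untreated difference was 4.04 (SE 0.22).

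SCG5 rose 3.26-fold with H2O2 in WT cells (log2 fold change 1.71, SE 0.32, edgeR adjusted p = 7.997e-06) and was called. In Atg7KO cells the log2 fold change was 0.63 (SE 0.22, edgeR adjusted p = 0.05768), which did not pass. Leaving out untreated Atg7KO replicate 1 gave 0.93 (SE 0.10, edgeR adjusted p = 6.244e-17), past the p threshold but still under the fold threshold. The difference between the responses was -1.08 on the log2 scale (SE 0.39), and -0.77 (SE 0.29) without that library; it was not tested. An antisense gene, AC123768.1, overlaps SCG5 and had 0 to 6 reads per library. As strand use in the counting is not stated, reads of the pair cannot be told apart; the antisense gene had 21 reads over all libraries, and SCG5 had 10 to 415 in each.

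BEX1 (ENSG00000133169, chrX:103062651-103064240, minus strand) had the highest FPKM of the 4 genes in WT cells and few reads in the knockout. The untreated WT libraries had 87.1, 94.4 and 92.7 FPKM, and the H2O2-treated WT libraries had 101.3, 96.9 and 103.8 FPKM. The untreated Atg7KO libraries had 3.86, 1.23 and 1.31 FPKM, from 55, 19 and 21 reads. The H2O2-treated Atg7KO libraries had 0.541, 0.634 and 0.667 FPKM, from 8, 9 and 10 reads. The 27 reads of this last group have an exact 95% Poisson interval of 17.8 to 39.3, which covers counting error only, against 4317 reads in the 3 treated WT libraries. BEX1 was 43.4-fold lower in Atg7KO cells without treatment (log2 difference -5.44, SE 0.37) and 162.7-fold lower with H2O2 (-7.35, SE 0.12). Without untreated Atg7KO replicate 1, whose level was the highest of its group, the untreated difference was -6.15 (SE 0.13). In bulk RNA, fewer cells that express a gene and less RNA per cell cannot be told apart.

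In WT cells BEX1 had a log2 fold change of 0.14 with H2O2 (SE 0.05, edgeR adjusted p = 0.02371), and the 3 treated libraries all lay above the 3 untreated ones. In Atg7KO cells the log2 fold change was -1.77 (SE 0.54, edgeR adjusted p = 0.03351), and the groups did not overlap. Neither passed the threshold. Without untreated Atg7KO replicate 1 the value in the knockout was -1.06 (SE 0.46, edgeR adjusted p = 0.03428). In 1 fit of all 12 libraries it was -1.76 (edgeR adjusted p = 0.004095), which passes. The responses differed by -1.90 on the log2 scale (SE 0.47), or -1.18 (SE 0.34) without that library, and this difference was not tested. BEX2, the closest relative of BEX1, had 0 to 9 reads in every library. How reads that match both genes were counted is not given in the sources used here.

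ABI3BP (ENSG00000154175, chr3:100749156-100993515, minus strand) was lower in the knockout and lower after H2O2. The untreated WT libraries had 15.4, 14.0 and 13.8 FPKM, and the H2O2-treated WT libraries had 5.61, 5.51 and 5.78 FPKM. The untreated Atg7KO libraries had 1.52, 2.73 and 2.93 FPKM, and the H2O2-treated ones 1.13, 1.02 and 1.21 FPKM. The 4 groups did not overlap, and their order was the reverse of that of NRCAM. ABI3BP was 5.99-fold lower in Atg7KO than in WT cells without treatment (log2 difference -2.58, SE 0.24) and 5.06-fold lower with H2O2 (-2.34, SE 0.07). Leaving out untreated Atg7KO replicate 1 gave an untreated difference of -2.34 (SE 0.06). A pseudogene and a small nuclear RNA gene lie within it, AC080014.1 and RNU6-865P, each with 1 read in all libraries together.

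ABI3BP fell with H2O2 in WT cells by 1.36 on the log2 scale (SE 0.05, edgeR adjusted p = 4.154e-27) and was called. In Atg7KO cells the log2 fold change was -1.11 (SE 0.25, edgeR adjusted p = 0.01139), just outside the threshold. That side depends on untreated Atg7KO replicate 1, since without it the value was -1.35 (SE 0.09, edgeR adjusted p = 8.611e-36), and 3 other settings also passed (adjusted p between 0.0001717 and 0.001845, from DESeq2, from edgeR on all 12 libraries and from edgeR without a filter on low counts). The responses differed by 0.25 on the log2 scale (SE 0.25), or 0.02 (SE 0.10) without that library, and this difference was not tested.

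**Figure D1:**
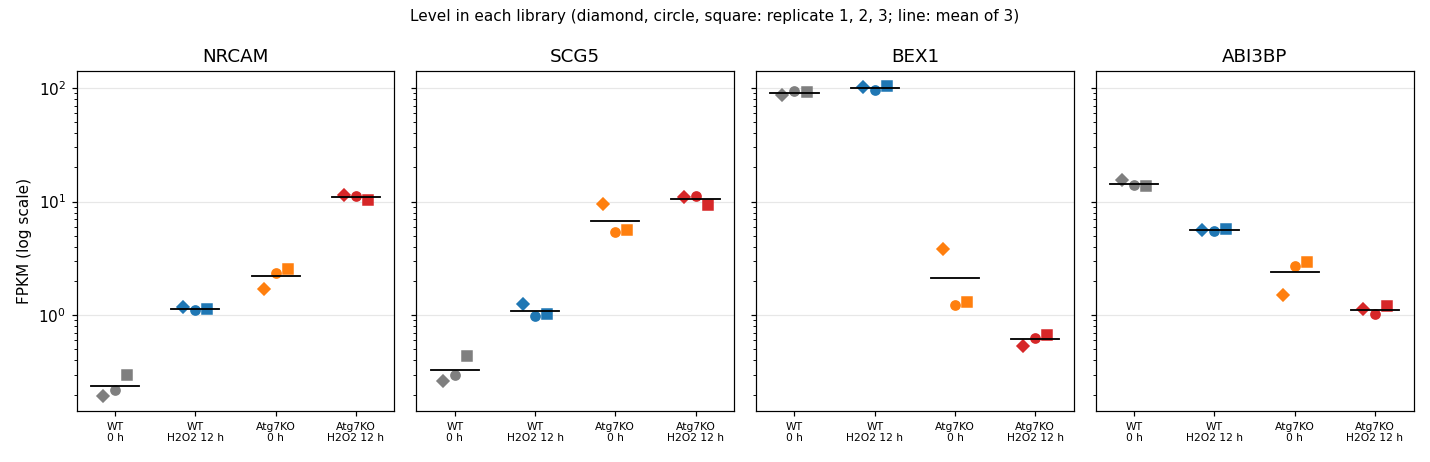
FPKM of each gene (log axis) in the 12 libraries, by group; symbols mark replicates 1, 2 and 3 and the line is the mean of 3. NRCAM climbs from 0.237 to 11.04 FPKM over the groups, ABI3BP descends from 14.4 to 1.12 FPKM, SCG5 and BEX1 separate mainly by line, and untreated Atg7KO replicate 1 lies apart from the other two of its group in all 4 panels.

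Among all genes, 3.50% of 15357 tested were called between the lines without treatment, 2.27% higher and 1.23% lower in Atg7KO cells, and 7.46% of 15909 with H2O2, 3.03% higher and 4.43% lower. The members were chosen by these contrasts, so nothing is read from their place among the called genes. By size of the difference they ranked 46 (NRCAM) and 22 (SCG5) among the 349 genes called higher and 4 (BEX1) and 31 (ABI3BP) among the 189 called lower without treatment. With H2O2, NRCAM ranked 32 and SCG5 33 of 482 called higher, and BEX1 ranked 1 and ABI3BP 116 of 705 called lower. The H2O2 response was called for 12.5% of 15913 genes in WT cells, 7.30% higher and 5.24% lower, and for 11.2% of 15475 genes in Atg7KO cells, 6.09% higher and 5.11% lower. Of the 4 members, 3 were called in WT cells (NRCAM and SCG5 higher, ABI3BP lower) and 1 in Atg7KO cells (NRCAM). These responses use the same libraries as the contrasts between lines that chose the members.

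**Figure D2:**
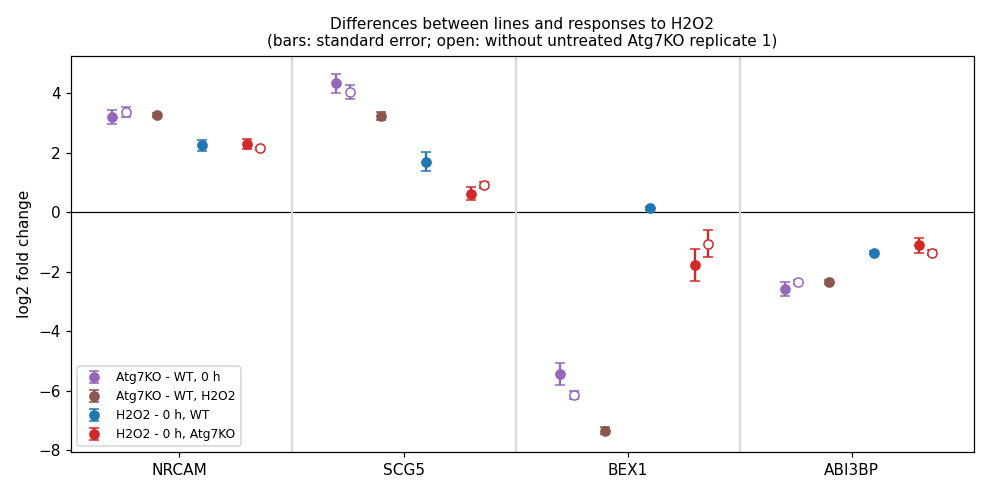
Log2 fold change of each gene in 4 comparisons, with standard errors; open circles leave out untreated Atg7KO replicate 1. NRCAM shows like responses to H2O2 in both lines (2.26 and 2.32), whereas BEX1 has 0.14 in WT cells and -1.77 in Atg7KO cells, or -1.06 without that library.

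Over 12 libraries, which share the 4 groups, the choice of genes that differ between the lines already gives the members large correlations in size. Pearson's r of log2 CPM, the read count scaled to library size, was 0.93 between NRCAM and SCG5, 0.89 between BEX1 and ABI3BP, -0.86 between NRCAM and BEX1, -0.93 between SCG5 and BEX1, -0.96 between NRCAM and ABI3BP and -0.98 between SCG5 and ABI3BP. Among 13306 other expressed genes, NRCAM was most like INA (r = 0.997), an intermediate filament protein of neurons, SAV1 (0.993), the scaffold of the Hippo kinases, and TIMP3 (0.992), an inhibitor of matrix metalloproteinases. TIMP3 had group means of 0.541, 1.98, 3.14 and 8.63 FPKM in the order untreated WT, treated WT, untreated Atg7KO and treated Atg7KO, the same order as NRCAM. SCG5 was most like EMP1 (0.994), GPAT3 (0.994), an enzyme of glycerolipid synthesis, and ATP2B1 (0.991), a calcium pump of the plasma membrane. GPAT3 had 1.19, 2.76, 8.97 and 12.1 FPKM. A high r compares the shape of the values, not the size of the difference. Between the lines, untreated and with H2O2, SAV1 (log2 0.63 and 0.69) and EMP1 (0.96 and 0.77) were not called. ATP2B1 (1.05 and 0.76) was called without treatment only.

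BEX1 was most like JAM3 (r = 0.990), a junctional adhesion molecule, MELTF (0.987), an iron-binding membrane protein, and CERS4 (0.987), a ceramide synthase. CERS4 had 1.26 FPKM in both WT groups and 0.122 and 0.0584 FPKM in untreated and treated Atg7KO cells. ABI3BP was most like OXTR (0.994), the oxytocin receptor, GFRA1 (0.994), a co-receptor for GDNF, and LMNB2 (0.989), a nuclear lamin. GFRA1 had group means of 17.2, 6.22, 2.88 and 0.949 FPKM, close to the 14.4, 5.63, 2.40 and 1.12 FPKM of ABI3BP. LMNB2 was not called between the lines (log2 -0.75 untreated and -0.78 with H2O2). Of these 12 genes only OXTR lies on the chromosome of the member it resembles.

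Of the 10 tested genes around SCG5, 2 on its downstream side were also called higher in the knockout in both conditions. Of all genes tested, 2.27% were called higher without treatment and 3.03% with H2O2. GREM1, a secreted antagonist of bone morphogenetic proteins whose start lies 76.3 kb from that of SCG5, had 5.76, 5.33 and 4.95 FPKM in untreated WT libraries and 47.2, 41.1 and 42.7 FPKM in untreated Atg7KO libraries. With H2O2 it had between 7.69 and 8.41 FPKM in WT cells and between 48.9 and 54.4 FPKM in Atg7KO cells. GREM1 was called higher in the knockout without treatment (log2 3.03, edgeR adjusted p = 6.599e-05) and with it (2.66, edgeR adjusted p = 7.326e-31). AC090877.2, which starts next to GREM1, was called as well (1.71 and 1.36, edgeR adjusted p = 0.004375 and 0.001383), on 11 to 91 reads per library. The calls of GREM1 held in all 6 fits with 1 library left out, that of AC090877.2 in 1 of 6 without treatment and in 4 of 6 with H2O2. FMN1, the next gene, stayed under 1 FPKM in every group and was not called (1.03 and 1.19).

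The 5 tested genes on each side of the other members held fewer calls. Of all genes tested, 3.50% were called in either direction without treatment and 7.46% with H2O2. At such shares few calls among 10 genes are no result about the members. None of the 10 around BEX1 was called, with log2 differences between -0.77 and 0.47 without treatment and between -0.63 and 0.78 with H2O2, although BEX3 and 2 TCEAL genes are among them. Around NRCAM and ABI3BP none was called without treatment. With H2O2, DOCK4, an activator of Rac and Rap GTPases 3578 kb from NRCAM, was called higher in the knockout (1.71, edgeR adjusted p = 2.269e-14), and LNP1, the third tested gene from ABI3BP, was called lower (-1.65, edgeR adjusted p = 6.258e-06). LAMB1, the laminin gene next to NRCAM, had 0.79 and 0.55. SLC26A4, also among the genes around NRCAM, was lower in the knockout with H2O2 (-2.27, edgeR adjusted p = 2.71e-08). It was not called, as its means were 0.574 FPKM in treated WT and 0.119 FPKM in treated Atg7KO cells. Without treatment its difference was -0.20.

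**Figure D3:**
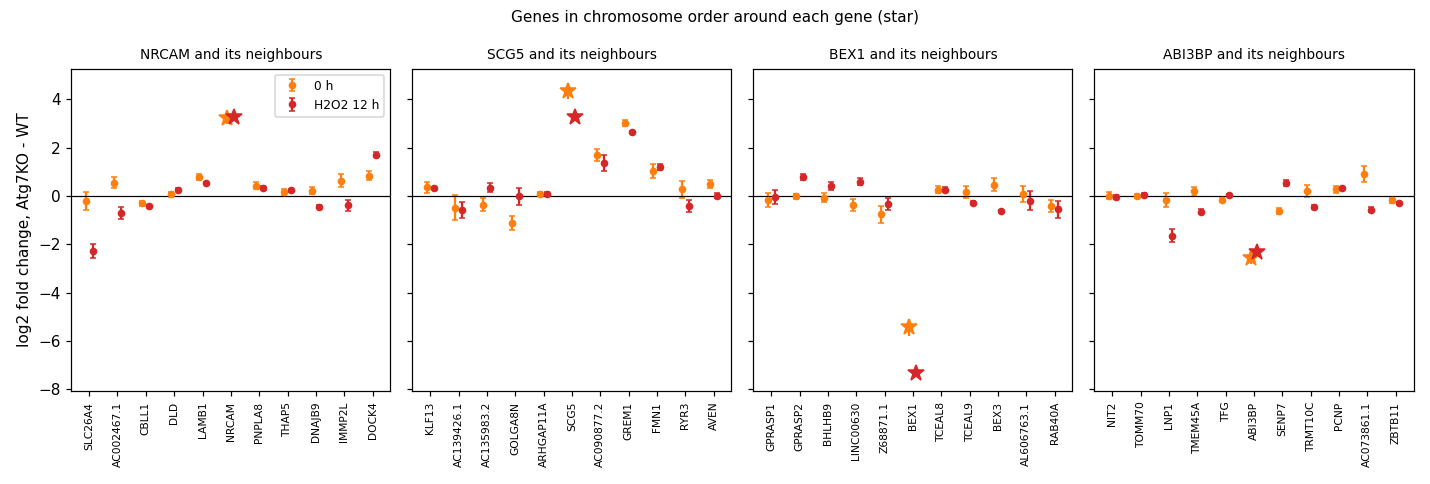
Log2 difference between Atg7KO and WT cells, with standard errors, of each gene (star) and the 5 tested genes on either side in chromosome order, without treatment (orange) and with H2O2 (red). Only SCG5 has called neighbours in both conditions, AC090877.2 and GREM1, while the 10 genes around BEX1 stay between -0.77 and 0.78.

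Genes related to the members by family or function were followed from 4 lists holding 50 genes. In each comparison 29 had enough reads to be tested, but not always the same 29. Of these, 6 were called between the lines without treatment (5 higher, 1 lower, 20.7% of those tested), falling to 2 without any 1 untreated WT library and to 4 without any 1 untreated Atg7KO library, and 4 with H2O2 (2 higher, 2 lower, 13.8%). The H2O2 response was called for 3 in WT cells (1 higher, 2 lower, 10.3%) and for 4 in Atg7KO cells (all lower, 13.8%), falling to 0 without treated Atg7KO replicate 1 or 2, to 1 without treated replicate 3 and to 2 without untreated replicate 3. Of the untreated calls between lines, those of NFASC and NRP1 held in all 6 fits with 1 library left out, that of CPE in 3, that of NRP2 in 2, that of VGF in 1 and that of ABI3 in 0. Without untreated Atg7KO replicate 1 those of VGF (log2 0.95) and ABI3 (2.60) were lost. The lists were written with earlier results of these data known, and the background shares are those given above for all genes.

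In the L1 family list, 7 of 11 genes were tested without treatment (2 higher, 1 lower, median log2 difference 0.47 against 0.01 over all genes). NFASC, which encodes neurofascin, a close relative of NRCAM, was lower where NRCAM was higher. It had 2.001 ± 0.118 FPKM (SD, n = 3) in WT and 0.476 ± 0.0402 FPKM in Atg7KO cells without treatment (log2 -2.07, edgeR adjusted p = 0.0001297), and was called lower with H2O2 too (-1.40, edgeR adjusted p = 8.868e-13). L1CAM, the founding member, was not called between the lines (0.47 and 0.10) and had 41.8 ± 0.701 FPKM in untreated WT cells, well above NRCAM. CHL1, the last of the family, had no read in any library. The semaphorin co-receptor NRP1, a partner of L1-type molecules, was called higher in the knockout in both conditions (1.19, edgeR adjusted p = 0.0004811, and 1.23, edgeR adjusted p = 1.612e-21). NRP2 was called without treatment only (1.41, edgeR adjusted p = 0.002563), with group means of 3.08 and 8.19 FPKM in untreated WT and Atg7KO cells and 7.18 and 6.76 FPKM after H2O2. With H2O2 8 genes of this list were tested, and the median was 0.22.

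In the list of granins, convertases and granule enzymes, 10 of 17 genes were tested without treatment (2 higher, none lower, median 0.39) and 9 with H2O2 (1 higher, none lower, median 0.05). PCSK2, the convertase that the SCG5 product serves, and CHGA, the marker granin of secretory granules, had no read in any of the 12 libraries, and PCSK1 had 19 to 36 reads per library. CPE, a carboxypeptidase that trims prohormones, was called higher in the knockout in both conditions (1.42, edgeR adjusted p = 0.001498, and 1.79, edgeR adjusted p = 1.531e-13), from 1.17 to 3.13 FPKM and from 1.67 to 5.80 FPKM. VGF, a granin-like precursor, was called without treatment (1.08, edgeR adjusted p = 0.005542) but had 0.04 with H2O2.

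In the BEX and TCEAL list, 7 of 13 genes were tested, none was called without treatment (median 0.16), and 1 was called lower with H2O2 (median -0.44). That gene was BEX4 (-1.90, SE 0.41, edgeR adjusted p = 0.0001496), on 4 to 7 reads in treated Atg7KO and 19 to 24 in treated WT libraries. Its treated WT mean was 1.008 FPKM, and the call was lost without treated WT replicate 2. By adjusted p alone, 5 of the 7 were lower and 0 higher with H2O2, and 0 passed without treatment. Of all genes, 8847 of 15909 passed by adjusted p alone with H2O2. BEX3, an adaptor of the p75 neurotrophin receptor, had 76.9 ± 5.34 FPKM in untreated WT cells, below the 91.4 ± 3.85 FPKM of BEX1, and 107 ± 50.4 FPKM in untreated and 50.6 ± 3.31 FPKM in treated Atg7KO cells. In the list of ABI3 and matrix proteins, 5 of 9 genes were tested between the lines. ABI3, the protein that ABI3BP was named for, was called higher without treatment (2.79, SE 0.45, edgeR adjusted p = 0.006784), on 3 to 12 reads in WT and 34 to 58 in Atg7KO libraries, opposite in direction to ABI3BP. The median difference of this list was -0.48 without treatment and 0.48 with H2O2.

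The companions called in the H2O2 comparisons were picked out after their values were seen. Of all genes, 12.5% were called in WT cells and 11.2% in Atg7KO cells. In WT cells they were NRP2 (1.22), FN1 (-1.19) and COL12A1 (-1.91). FN1 and COL12A1 are matrix proteins that fell, as ABI3BP did. By adjusted p alone, 3 of the 4 tested genes of their list were lower and 1 was higher. Of all 15913 genes tested in WT cells, 9712 passed by adjusted p alone. TNXB of that list rose in WT cells from a mean of 0.048 to 0.2515 FPKM. In Atg7KO cells they were L1CAM (-1.12), PCSK4 (-1.16), TCEAL4 (-1.05) and ABI3 (-1.30). None of these 4 was called without treated Atg7KO replicate 1 or 2, and without untreated Atg7KO replicate 1 the values of TCEAL4 (-0.82) and ABI3 (-1.10) were not called.

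**Figure D4:**
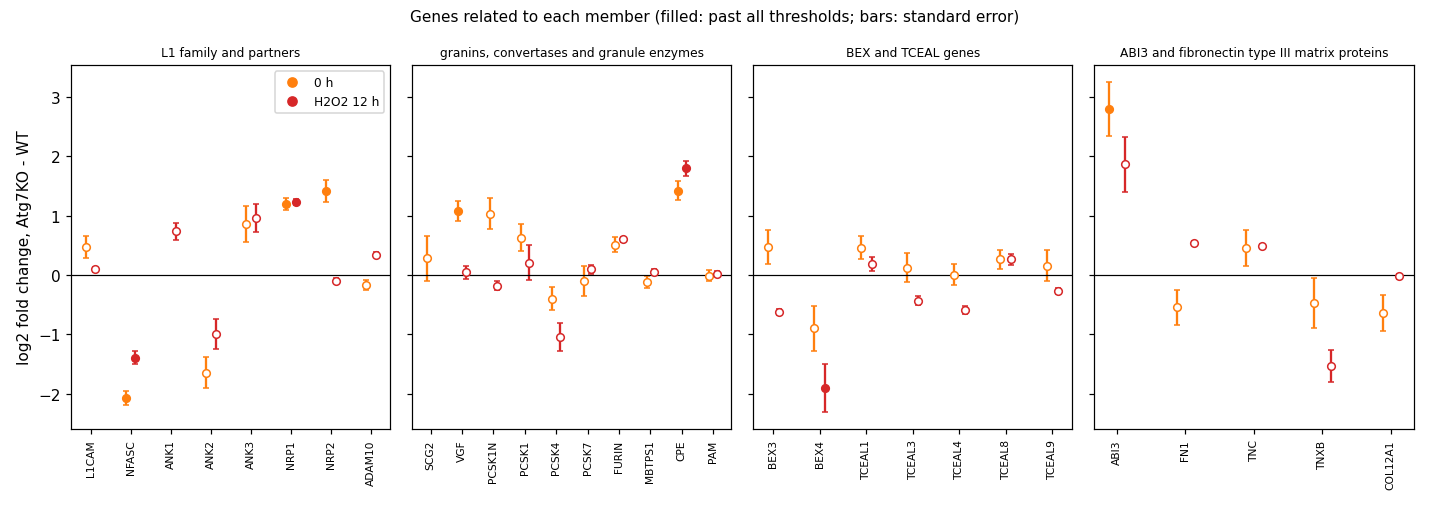
Log2 difference between Atg7KO and WT cells, with standard errors, of the related genes in 4 lists, without treatment (orange) and with H2O2 (red); filled points were called. NFASC (-2.07 and -1.40) lies opposite to NRCAM, CPE (1.42 and 1.79) on the side of SCG5, and ABI3 (2.79 without treatment) opposite to ABI3BP.

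Since NRCAM, SCG5 and BEX1 are known from neurons, markers of neurons and neuroendocrine cells were read beside them. Of 15 such genes, 7 were tested between the lines without treatment, and INA was called higher in both conditions (1.36 and 1.51), 1 of 7 each time. The summed level of the list was 21.4 to 21.9 FPKM in untreated WT, 21.6 to 23.3 in treated WT, 15.8 to 19.0 in untreated Atg7KO and 25.1 to 25.9 FPKM in treated Atg7KO libraries, mostly from ENO2. The median log2 difference of the tested genes was 0.92 without treatment (over all genes 0.01) and -0.09 with H2O2. By adjusted p alone, without the fold and FPKM thresholds, 3 were higher (SYT1, INA and MAP2) and 1 lower (ENO2) in untreated Atg7KO cells. With H2O2, 2 were higher and 2 lower by adjusted p alone. Of all genes tested between the lines, 1182 of 15357 passed by adjusted p alone without treatment and 8847 of 15909 with H2O2. SYT1, a calcium sensor of vesicle release, had group means of 1.24 and 2.34 FPKM in untreated WT and Atg7KO cells and 0.673 and 0.985 FPKM after H2O2. The mean of SNAP25, SYP, TUBB3 and MAP2 was at most 0.503 FPKM in any group, and STMN2, ELAVL4, DCX and NEFM had no read in the untreated groups. The untreated call of INA was lost when any 1 untreated WT library was left out. Of 8 fibroblast markers, 6 were tested between the lines in each condition. Of these, only LUM was called, higher in the knockout (5.80 and 4.91), from 0.168 to 9.52 FPKM without treatment. The fibroblast list summed to 649.7 to 682.2 FPKM in untreated WT and 385.2 to 535.4 FPKM in untreated Atg7KO libraries, mostly from COL1A1. After H2O2 it summed to 291.8 to 308.7 FPKM in WT and 261.8 to 271.5 FPKM in Atg7KO libraries. Of 11 lens markers, 5 were tested between the lines without treatment and 6 with H2O2, and none was called. The shares called of all genes were 3.50% and 7.46%. By adjusted p alone none differed without treatment, and with H2O2 1 was higher and 3 were lower (median log2 difference -0.39). As 8847 of all 15909 genes passed that p threshold with H2O2, these counts are no result about the lens markers. The lens list summed to 339.4 to 359.8 FPKM in untreated WT and 257 to 399.9 FPKM in untreated Atg7KO libraries. After H2O2 it summed to 338.3 to 358.3 FPKM in WT and 245.7 to 252.6 FPKM in Atg7KO libraries. These sums came mostly from VIM. The part of these markers in the results for the 4 genes was not tested.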

How the data were processed

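The authors extracted total RNA from WT and Atg7KO HLE-B3 cells, prepared libraries with a NEBNext Ultra kit and sequenced them. The submitters' processing notes name HISAT2 2.0.5, featureCounts 1.5.0-p3 and GRCh38. The deposited counts are whole reads per gene, not normalized, and the authors scaled them to gene length and library size for the deposited FPKM. Strand use and the treatment of reads mapping to several places are not given in the sources used here. Libraries were grouped by label, 3 per group, with totals of 15602183 to 17659496 reads.

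Counts were fitted with edgeR 4.0.16 in R 4.3.3, on the 6 libraries of each comparison, with filterByExpr (minimum count 10), TMM scaling, and robust quasi-likelihood tests, adjusted by the Benjamini-Hochberg method over all genes tested. Calls needed an adjusted p under 0.01, a log2 fold change beyond 1 and a mean FPKM above 1 in at least 1 group, the thresholds of the study. The study used DESeq2, which was run as an alternative (1.42.0), besides limma 3.58.1. Likeness was Pearson's r of log2 CPM (prior count 2), with the 3 most alike genes named per member. Also named were companions and neighbours called between the lines, genes overlapping a member, and BEX2. The 4 members and all lists were chosen with earlier results of these data known. Alternatives were RLE scaling, no filter on low counts, DESeq2, 1 fit of 12 libraries, the replicate number as a block, limma on log2 FPKM plus 1 or 0.1, and each library left out in turn. Counting intervals cover counting error only.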

Additional observations from a re-analysis of the deposited data

Results flagged for a closer look

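For BEX1 every H2O2-treated library lay above the untreated ones in WT cells (log2 fold change 0.135, edgeR adjusted p = 0.02371) and below them in Atg7KO cells (-1.774, edgeR adjusted p = 0.03351). Neither response passed the threshold of 0.01. Over the alternatives the adjusted p ran from 0.01365 to 0.5622 in WT cells and from 0.004095 to 0.1079 in Atg7KO cells. The difference between the lines was not tested. VGF, a granin-like precursor of the SCG5 companions, showed the same arrangement, with 0.496 in WT cells (edgeR adjusted p = 0.0005414) and -0.5363 in Atg7KO cells (edgeR adjusted p = 0.02824), and this difference was not tested either. The arrangement was looked for only in the members, in companions called between the lines and in BEX2. Its share among all genes was not counted, so how common it is cannot be said.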

How the results depend on the processing

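All 104 alternative values of the difference between the lines of the 4 genes kept their direction, and 98 of 104 alternative values of the H2O2 responses kept their direction and their side of the p threshold. On log2 of FPKM plus 1 (limma), which shrinks low genes, the untreated differences were 1.364 (NRCAM), 2.516 (SCG5) and -2.206 (ABI3BP), and those with H2O2 2.49 (NRCAM), 2.463 (SCG5), -5.978 (BEX1) and -1.647 (ABI3BP). That setting called 300 genes and 3 companions between the lines without treatment, 518 and 2 with H2O2, 1053 genes for H2O2 in WT cells, and 1074 genes and 1 companion in Atg7KO cells. With FPKM plus 0.1 NRCAM was 2.765 untreated, and with H2O2 NRCAM was 3.164, BEX1 -7.145 and ABI3BP -2.237. The ABI3BP response in Atg7KO cells passed without a filter (-1.105, edgeR adjusted p = 0.001845), by DESeq2 (-1.097, adjusted p = 0.0001717) and in 1 edgeR fit of 12 libraries (-1.107, adjusted p = 0.0003073), as did BEX1 in the last (-1.763, adjusted p = 0.004095); the cause was not tested.

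Leaving out 1 library gave 242 to 685 genes called between the untreated lines (main 538), the low counts of 251, 242 and 245 without WT replicate 1, 2 or 3, and 2 to 4 companions (main 6). It gave -6.149 to -5.162 for the untreated BEX1 difference, 0.4837 to 0.9268 for the SCG5 response and -1.352 to -0.9328 for the ABI3BP response in Atg7KO cells, and 0 to 5 companions called there, 0 without treated Atg7KO replicate 1 or 2 and 1 without replicate 3. The differences of responses were -1.309 to -0.7669 for SCG5, -2.161 to -1.178 for BEX1, -0.1237 to 0.1901 for NRCAM and 0.01768 to 0.4353 for ABI3BP. Deviations of log2 CPM from the group mean correlated at -0.043 to 0.098 between same-numbered libraries of the groups compared. These values show no sign of pairing by number, but with 3 libraries per group they cannot exclude it. With the replicate number as a block, 2 companions were called for H2O2 in Atg7KO cells in place of 4, 394 genes between the untreated lines in place of 538, and ABI3BP was -1.057 (edgeR adjusted p = 0.01326). Genes with few reads, BEX1 in Atg7KO and SCG5 in WT cells, are limited by counting.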
